A study of Mus musculus with 4 samples.

Results

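The pore-forming subunits of the voltage-gated potassium channels were taken as the genes whose symbols begin with Kcna, Kcnb, Kcnc, Kcnd, Kcnf, Kcng, Kcnh, Kcnq, Kcns or Kcnv followed by a number. This rule found 40 members among the 32285 genes of the deposited matrices, of which 36 are described here, and every count of members below is over these 36. By family the 40 were 8 Kv1 genes (Kcna), 2 Kv2 genes (Kcnb), 4 Kv3 genes (Kcnc), 3 Kv4 genes (Kcnd), 5 Kv7 genes (Kcnq) and 8 genes of the ether-a-go-go families (Kcnh). The remaining 10 were the so-called silent subunits, namely 1 Kcnf, 4 Kcng, 3 Kcns and 2 Kcnv genes. The study profiled single nuclei from the cortex of Setdb1-CK-cKO mice (KO) and of Wildtype mice (WT), 2 animals and 2 libraries per genotype, all C57BL/6 and 5 months old. Setdb1 encodes a histone methyltransferase that deposits a repressive mark on chromatin. The labels do not say which part of Setdb1 is deleted, what CK stands for or in which cells the deletion takes place. Libraries were made with 10x Genomics 3′ chemistry from nuclear RNA.

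Voltage-gated potassium channels open when the membrane depolarises and let potassium leave the cell, which ends the action potential and sets how soon the next one can follow. Each channel is a ring of subunits, usually drawn from 1 family. Kv1 channels sit in axons, Kv2 channels form the delayed rectifier of the cell body, Kv3 channels allow fast firing, Kv4 channels carry the dendritic A-type current and Kv7 channels carry the slow M current that restrains repeated firing. The silent subunits do not form channels by themselves and change the behaviour of Kv2 channels.

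The 4 libraries held 38503740 and 38314394 unique molecular identifiers (UMIs) in KO and 45605971 and 42780840 UMIs in WT, over 54550 barcodes, of which 51846 nuclei were kept. Nuclei were clustered without any Kcn gene, so the members' levels did not define the clusters, and 48224 nuclei were placed in 13 classes by marker genes. A type name below means that a cluster was like that type by its markers. A difference from other studies may come from these rebuilt names. Excitatory neurons numbered 5654 and 7103 nuclei in KO and 6661 and 7140 nuclei in WT, and inhibitory neurons 930 and 1248 nuclei in KO and 1105 and 1259 nuclei in WT. A level is given in counts per 1000000 (CPM), the UMIs of a gene per 1000000 UMIs of all nuclei of a type in 1 library. Levels in this unit depend on transcript features as well as abundance, so they were compared between types and genotypes and not between genes. Pairs of libraries shared 48 to 64 barcodes, at most 0.483% of the smaller library. Reported p-values of KO over WT measure the spread between these animals, 2 per genotype. In contrasts between types and in the difference of effects the library was a term. Those p-values measure how differences between types varied over the same 4 libraries.

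Setdb1 itself was at 72.2 and 67.6 CPM in KO excitatory neurons, against 71.9 and 67.4 CPM in WT (log2 change, KO over WT, -0.02 ± 0.08, standard error as after every log2 value, adjusted p = 0.898 by edgeR). Reads from the 3′ end outside a deleted part would not show the deletion, so these values check nothing about the labels. The sex given for the KO animals went against the data. KO replicate 1, labelled female, had 1.06 CPM of Xist and 77.0 CPM of Uty in excitatory neurons, whereas KO replicate 2, labelled male, had 1425 CPM of Xist and 0.04 CPM of Uty. In WT the labelled male had 1.74 CPM of Xist and 85.9 CPM of Uty, and the labelled female had 1020.3 CPM and 0.14 CPM. Each genotype thus held 1 library of either pattern, and the genotype labels are used as given.

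Promoters are shown for 3 members whose RNA was lower in KO in at least 1 type below. The windows span 250 bases before to 50 bases after the annotated start and come from RefSeq (GRCm38.p6), which had 30 windows for 25 of the 36 members. Capitals mark GGGCGG on either strand, the core of the Sp1 box. The Kcng3 window, chr17:83631846-83632145 on the minus strand, held 49 CG dinucleotides and 4 matches. Kcnc2 has 4 windows, with 3 to 6 CG dinucleotides, of which the one at chr10:112269767-112270066 holds 1 match. The one printed, chr10:112270871-112271170 on the plus strand, held 5 CG dinucleotides and no match. Of 2 Kcnq5 windows, neither with a match, the one printed, chr1:21961893-21962192 on the minus strand, held 20 CG dinucleotides and the other, chr1:21962601-21962900, held 3. 
Kcng3: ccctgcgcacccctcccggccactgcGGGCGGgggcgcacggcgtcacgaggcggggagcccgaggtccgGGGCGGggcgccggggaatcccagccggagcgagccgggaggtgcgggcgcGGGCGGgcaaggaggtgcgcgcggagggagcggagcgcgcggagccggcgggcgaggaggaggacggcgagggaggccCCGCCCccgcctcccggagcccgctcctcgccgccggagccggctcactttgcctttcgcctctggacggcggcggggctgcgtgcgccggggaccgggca
Kcnc2: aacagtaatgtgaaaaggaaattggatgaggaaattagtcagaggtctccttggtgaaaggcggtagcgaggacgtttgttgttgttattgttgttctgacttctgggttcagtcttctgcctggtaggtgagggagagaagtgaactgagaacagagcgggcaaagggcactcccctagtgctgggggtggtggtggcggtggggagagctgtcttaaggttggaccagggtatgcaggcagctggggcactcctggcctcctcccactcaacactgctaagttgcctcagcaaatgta
Kcnq5: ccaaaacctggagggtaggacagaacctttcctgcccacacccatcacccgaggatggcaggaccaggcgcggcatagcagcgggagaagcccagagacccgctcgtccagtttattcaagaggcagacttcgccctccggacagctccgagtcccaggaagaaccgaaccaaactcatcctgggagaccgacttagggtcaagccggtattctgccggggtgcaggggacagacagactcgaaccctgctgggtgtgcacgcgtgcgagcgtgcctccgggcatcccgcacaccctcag
 GGGCGG was found in 18 of the 30 member windows (60%) and in 35.7% of the 32851 mouse windows of the same length. The median window of a member held 19.5 CG dinucleotides, against 7 over all windows. TATAAA was in 0 of the 30 member windows and in 13.6% of all windows, CACGTG in 1 (3.33%) and 7.15%, and TGACGTCA in 0 and 1.79%, all read on either strand. The windows of these 3 genes, all with less RNA in KO in at least 1 type, thus held between 3 and 49 CG dinucleotides. No cause is read from these letters.

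Levels of the members differed between cell types. Of the 36, 24 reached 20 CPM in at least 1 type, and the heat map of levels shows them across 22 types. Against the mean of the other classes, 14 of 23 members tested were higher in excitatory neurons (36.8% of all genes tested were) and 1 was lower (24.1%), by edgeR's quasi-likelihood test. In inhibitory neurons 13 were higher (32.7%) and 4 lower (22.1%), and in striatal projection neurons 15 were higher (26.5%) and 2 lower (15.6%). Glia had the opposite balance, with 3 higher (22.6%) and 12 lower (16.1%) in astrocytes, 7 (28.6%) and 10 (22.7%) in oligodendrocytes, and 1 (27.4%) and 11 (22.4%) in microglia. Oligodendrocyte precursors stood between, with 5 higher (15.3%) and 4 lower (7.18%), while their committed successors had 4 (9.38%) and 6 (5.17%). In the sparse vascular classes 0 members were higher (6.09%) and 3 lower (3.21%) in endothelial cells, 0 (4.82%) and 3 (3.84%) in mural cells, and 0 (8.21%) and 3 (4.73%) in fibroblasts. The same 4 libraries supplied every type.

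**Figure D1:**
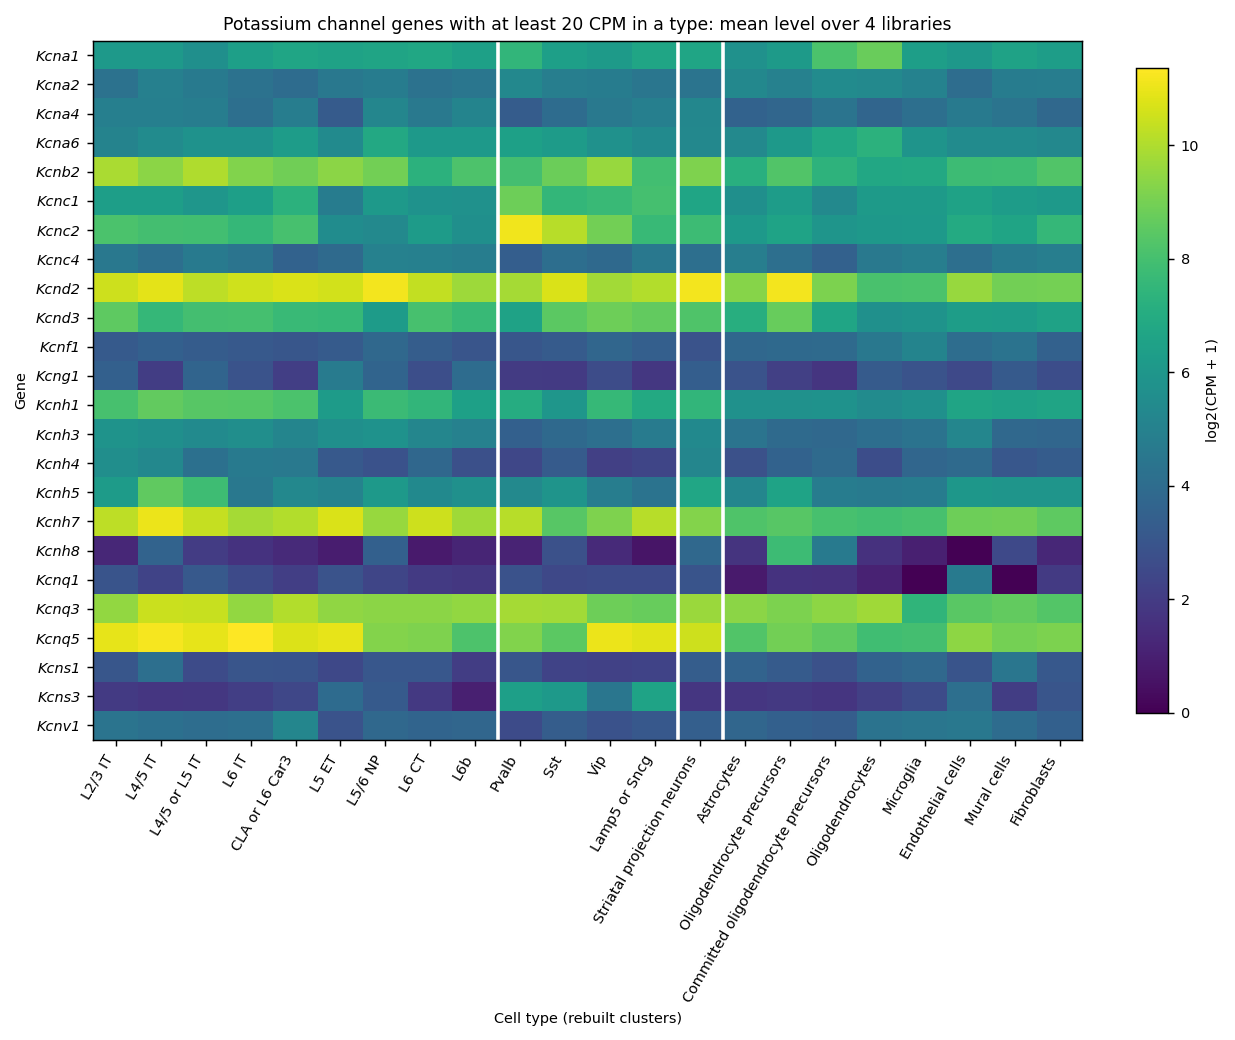
Heat map of log2(CPM + 1), averaged over the 4 libraries, for the 24 members that reached 20 CPM in a type (rows) in 22 types (columns: excitatory subclasses, inhibitory subclasses, striatal projection neurons, then glia and vascular cells). Kcnc2 is highest in Pvalb interneurons, Kcnh8 in oligodendrocyte precursors and Kcna1 in oligodendrocytes.

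Among interneurons the Kv3 gene Kcnc2 fell into 4 separate levels. In Pvalb interneurons, the fast-spiking basket and chandelier cells, Kcnc2, a Kv3 subunit at chr10:112271121-112467024 (plus strand), was at 2222 and 2008 CPM in KO libraries, against 2278 and 2264 CPM in WT libraries (mean 2193 ± 126 CPM, SD over the 4 libraries, as in every mean below). It averaged 1136 ± 156 CPM in Sst interneurons, 497 ± 30.8 CPM in Vip interneurons and 202 ± 31.7 CPM in Lamp5 or Sncg interneurons. No 2 of the 4 subclasses overlapped, and Pvalb interneurons exceeded the mean of the other 3 by 2.20 ± 0.05 on the log2 scale (adjusted p = 3.05e-45). In the same cells Kcnc1, its Kv3 partner at chr7:46396497-46438704 (plus strand), was at 431 and 444 CPM in KO libraries, against 485 and 493 CPM in WT libraries (log2 1.14 ± 0.06, adjusted p = 5.92e-26). Its lowest subclass was Sst, at 183 ± 20.8 CPM, and every Pvalb library lay above every library of the other 3 subclasses. Kcnc4, another Kv3 subunit, was highest in Lamp5 or Sncg (22.7 ± 7.24 CPM) and lowest in Pvalb (9.66 ± 2.23 CPM).

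The silent subunit Kcns3, at chr12:11090202-11151056 (minus strand), divided interneurons in another way. In Lamp5 or Sncg interneurons it was at 108 and 74.2 CPM in KO libraries, against 111 and 90.05 CPM in WT libraries, and it averaged 85.4 ± 11.1 CPM in Pvalb and 68.6 ± 10.8 CPM in Sst interneurons. In Vip interneurons it was at 21.7 and 10.04 CPM in KO libraries, against 21.2 and 30.1 CPM in WT libraries (log2 -1.98 ± 0.16, adjusted p = 1.66e-16), below every library of the other 3 subclasses. Excitatory neurons held only 3.97 ± 0.85 CPM, and the class contrast for inhibitory neurons was log2 4.30 ± 0.15, adjusted p = 7.49e-36. A gene on the other strand, Gm48088, overlaps Kcns3, and how strand was used in counting is not given in the sources used here.

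Kcnq5, a Kv7 subunit of the M current, was highest in Vip interneurons. There it was at 2108 and 1959.8 CPM in KO libraries, against 1976 and 2289.7 CPM in WT libraries (gene at chr1:21398403-21961942, minus strand), and it exceeded the mean of the others by 1.51 ± 0.06 on the log2 scale (adjusted p = 9.19e-33). It averaged 1846 ± 103 CPM in Lamp5 or Sncg, 592 ± 93.3 CPM in Pvalb and 363 ± 55.4 CPM in Sst interneurons, the lowest of the 4. Kcnq3, another M-channel subunit, was highest in Pvalb (903 ± 63.9 CPM) and Sst (887 ± 91.2 CPM), which overlapped, and lowest in Lamp5 or Sncg (416 ± 52.8 CPM).

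**Figure D2:**
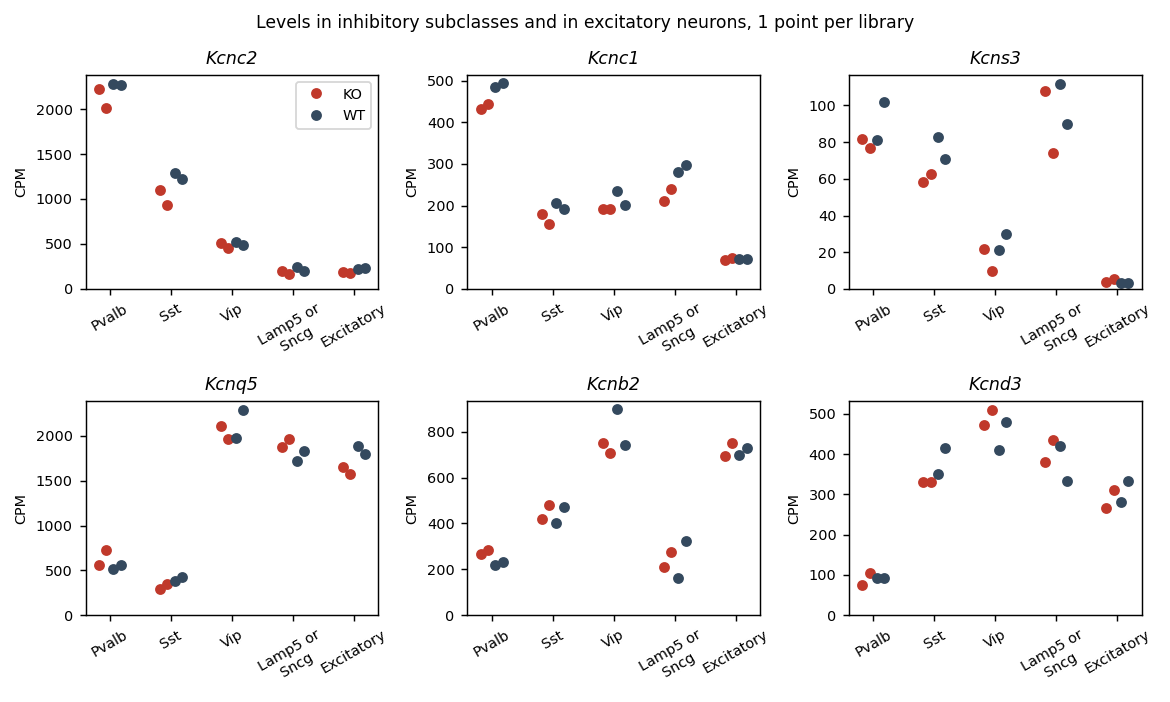
Level in CPM (linear axis, 1 panel per gene) of Kcnc2, Kcnc1, Kcns3, Kcnq5, Kcnb2 and Kcnd3 in 4 interneuron subclasses and in excitatory neurons; each point is 1 library, KO left of WT. Kcnc2 and Kcnc1 peak in Pvalb interneurons, Kcnq5 is high in Vip and Lamp5 or Sncg interneurons, Kcnb2 is highest in Vip, and Kcnd3 is lowest in Pvalb.

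The A-type genes separated Sst, Vip and Pvalb interneurons. Kcnd2, the main dendritic Kv4 subunit, was highest in Sst (1657 ± 54.8 CPM, log2 0.85 ± 0.05, adjusted p = 1.33e-23) and lowest in Vip interneurons (869 ± 45.5 CPM). In Pvalb interneurons Kcnd3, its Kv4 relative, was at 75.4 and 105 CPM in KO libraries, against 91.7 and 92.2 CPM in WT libraries (log2 -2.13 ± 0.08, adjusted p = 7.12e-33) and averaged 468 ± 41.97 CPM in Vip, its highest subclass. Every Pvalb library lay below every other interneuron library for Kcnd3. Kcnb2, a Kv2 delayed rectifier subunit, was highest in Vip (774 ± 84.6 CPM, log2 1.37 ± 0.07, adjusted p = 1.75e-25) and lowest in Lamp5 or Sncg interneurons (243 ± 71.1 CPM).

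Of the axonal Kv1 genes, Kcna1 in Pvalb interneurons was at 177 and 174 CPM in KO libraries, against 172 and 177 CPM in WT libraries (log2 1.06 ± 0.08, adjusted p = 3.05e-19), and it was lowest in Vip interneurons (71.4 ± 5.21 CPM). The 4 Pvalb libraries lay within a few CPM of each other and above all other interneuron libraries. Kcna2 and Kcna6, Kv1 subunits of the same axonal channels, were also highest in Pvalb, at 38.5 ± 7.04 CPM and 86.2 ± 10.6 CPM, and lowest in Lamp5 or Sncg interneurons, at 20.7 ± 4.77 CPM and 42.8 ± 12.6 CPM. Kcna4, the A-type Kv1 subunit, had the reverse order, with 28.6 ± 7.57 CPM in Lamp5 or Sncg and 8.85 ± 2.22 CPM in Pvalb interneurons.

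Among the ether-a-go-go genes, Kcnh7, of the erg branch, was at 1141 ± 102 CPM in Lamp5 or Sncg and 1133 ± 84.1 CPM in Pvalb interneurons, which overlapped, and at 341 ± 16.6 CPM in Sst interneurons (log2 -1.35 ± 0.06, adjusted p = 1.91e-28). Kcnh1, of the eag branch, was highest in Vip (197 ± 19.5 CPM) and lowest in Sst interneurons (61.03 ± 6.23 CPM), and Kcnh5, the other eag gene, was highest in Sst (57.5 ± 8.07 CPM, log2 1.13 ± 0.14, adjusted p = 1.15e-09) and lowest in Lamp5 or Sncg (18.98 ± 9.85 CPM). Sst interneurons thus held the least Kcnh1 and the most Kcnh5. Kcnh3, an elk channel, ranged between 10.3 ± 3.43 CPM in Pvalb and 25.8 ± 4.29 CPM in Lamp5 or Sncg interneurons. Of the 18 members tested, 10 were higher (16.1% of all genes) and 7 lower (14.4%) in Pvalb than in the mean of the other subclasses, 8 (10.8%) and 5 (8.78%) in Sst, 4 (10.8%) and 7 (9.95%) in Vip, and 7 (10.4%) and 6 (10.4%) in Lamp5 or Sncg. The small Meis2 inhibitory cluster, which had under 30 nuclei in 1 KO library and was not tested, held the highest mean of any type for Kcnb2 (2225 ± 1041 CPM), Kcnd2 (2625 ± 1279 CPM), Kcnd3 (569 ± 157 CPM), Kcna4 (55.7 ± 15.2 CPM) and the silent subunit Kcnf1 (44.2 ± 49.9 CPM), with a wide spread: Kcnb2 was at 3169 and 779 CPM in KO libraries, against 2208 and 2743 CPM in WT libraries.

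Excitatory neurons were divided into intratelencephalic (IT), extratelencephalic (ET), near-projecting (NP), corticothalamic (CT), L6b and claustrum or L6 Car3 (CLA) subclasses. Kcnh5 marked the middle layers. In L4/5 IT neurons it was at 371 and 381 CPM in KO libraries, against 419 and 369 CPM in WT libraries (log2 2.82 ± 0.06, adjusted p = 7.66e-42 against the mean of the other 8 subclasses) and averaged 228 ± 26.6 CPM in L4/5 or L5 IT neurons. Its lowest subclass, L6 IT, held 22.6 ± 7.67 CPM (log2 -1.74 ± 0.12, adjusted p = 2.79e-17), and no library of any other subclass reached the L4/5 IT range. Kcnh1, its eag relative, was also highest in L4/5 IT (395 ± 55.5 CPM) and lowest in L5 ET neurons (75.4 ± 5.45 CPM, log2 -1.60 ± 0.07, adjusted p = 7.5e-27). Kcnh7 was highest in L4/5 IT (2062 ± 167 CPM) and lowest in L5/6 NP neurons (777 ± 90.6 CPM), as was Kcnq3 (1409 ± 141 CPM and 666 ± 95.8 CPM). The elk genes Kcnh3 and Kcnh4 were highest in L2/3 IT (55.9 ± 10.9 CPM and 48.2 ± 6.40 CPM) and lowest in L6b neurons (31.2 ± 2.61 CPM and 5.76 ± 1.48 CPM).

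Kcnq5 was lowest in L6b, L6 CT and L5/6 NP neurons. In L6 IT neurons it was at 2605 and 2242 CPM in KO libraries, against 2973 and 2688 CPM in WT libraries (log2 1.19 ± 0.04, adjusted p = 8.78e-31), and it averaged 2339 ± 86.8 CPM in L4/5 IT and 1937 ± 76.8 CPM in L5 ET neurons. In L6b neurons it was at 295 and 292 CPM in KO libraries, against 291 and 298 CPM in WT libraries (log2 -2.35 ± 0.06, adjusted p = 4.71e-37), with L6 CT at 577 ± 25.9 CPM and L5/6 NP at 607 ± 118 CPM. All L6b libraries lay below all libraries of every other subclass. Kcnq1, a Kv7 subunit best known from the heart, reached 26.1 ± 3.93 CPM in an excitatory cluster with Ndst4 and Abi3bp among its top genes. That cluster made up 3.10% and 0.23% of excitatory nuclei in KO and 3.09% and 2.61% in WT. Kcnq1 was lowest in L6b neurons (2.55 ± 1.82 CPM). Kcnq1ot1 is among the genes on the other strand of Kcnq1, and without the strand setting their reads cannot be told apart.

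Kcnb2, Kcnc1 and Kcnc2 were each lowest in a deep-layer subclass. Kcnb2 averaged 1039 ± 52.5 CPM in L4/5 or L5 IT and 954 ± 23.2 CPM in L2/3 IT neurons, which overlapped. In L6 CT neurons Kcnb2 was at 167 and 159.8 CPM in KO libraries, against 134 and 157 CPM in WT libraries (log2 -2.00 ± 0.05, adjusted p = 1.7e-37), below every other subclass. Kcnc2 averaged 282 ± 47.7 CPM in L2/3 IT neurons (log2 1.39 ± 0.06, adjusted p = 4.84e-29) and 40.2 ± 10.3 CPM in L5/6 NP neurons (log2 -1.96 ± 0.16, adjusted p = 1.49e-15). In CLA or L6 Car3 neurons Kcnc1 was at 146 and 134 CPM in KO libraries, against 184 and 168 CPM in WT libraries (log2 1.42 ± 0.09, adjusted p = 3.38e-19), and it was lowest in L5 ET neurons, which project out of the telencephalon (26.4 ± 5.45 CPM). Among these named subclasses Kcnc4 was highest in L5/6 NP (31.2 ± 7.27 CPM) and lowest in CLA or L6 Car3 neurons (10.8 ± 5.56 CPM). An excitatory cluster with Ndst4 and Ntng1 among its top genes held 31.7 ± 4.33 CPM of it.

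L5/6 NP neurons held the most Kcna6, Kcna4 and Kcnd2. Kcna6 averaged 115 ± 18.2 CPM there and was lowest in L2/3 IT (32.9 ± 4.05 CPM), and Kcna4 averaged 35.9 ± 2.90 CPM there and was lowest in L5 ET neurons (8.56 ± 1.27 CPM). Kcnd2 averaged 2273 ± 230.4 CPM in L5/6 NP and 816 ± 58.9 CPM in L6b neurons, whereas Kcnd3 had its highest level in L2/3 IT (366 ± 37.8 CPM) and its lowest in L5/6 NP neurons (73.6 ± 11.6 CPM, log2 -1.83 ± 0.11, adjusted p = 2.22e-20). Kcnd2 thus had its highest and Kcnd3 its lowest mean in the same subclass. Kcna1 was highest in L6 CT (109 ± 6.99 CPM) and lowest in L4/5 or L5 IT (48.7 ± 2.77 CPM), and Kcna2 highest in L4/5 IT (29.5 ± 2.23 CPM) and lowest in CLA or L6 Car3 neurons (15.3 ± 6.19 CPM). Among the silent subunits, Kcng1 in L5 ET neurons was at 28.8 and 20.9 CPM in KO libraries, against 28.9 and 24.6 CPM in WT libraries (log2 1.88 ± 0.20, adjusted p = 6.15e-12), and it averaged 3.19 ± 2.70 CPM in L4/5 IT neurons, its lowest subclass. Kcns3, low in all excitatory neurons, was also highest in L5 ET (14.5 ± 1.96 CPM, log2 2.40 ± 0.24, adjusted p = 1.04e-12). Kcnv1 was highest in CLA or L6 Car3 (35.8 ± 1.83 CPM) and lowest in L5 ET (6.61 ± 2.57 CPM), Kcns1 highest in L4/5 IT (16.9 ± 3.18 CPM) and lowest in L6b (3.24 ± 1.700 CPM), and Kcnf1 highest in L5/6 NP (13.3 ± 5.66 CPM) and lowest in L6b neurons (6.86 ± 4.45 CPM).

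Of the 27 members tested among excitatory subclasses, 17 were higher (18% of all genes) and 5 lower (16.8%) in L4/5 IT, 14 (19.7%) and 5 (15.5%) in L2/3 IT, 13 (14.6%) and 3 (9.47%) in L4/5 or L5 IT, 7 (9.99%) and 4 (6.55%) in L6 IT, and 11 (9.97%) and 4 (7.89%) in CLA or L6 Car3. L6 CT, L6b and L5/6 NP neurons had more members lower, with 5 higher (13.6%) and 16 lower (14.1%) in L6 CT, 4 (12.1%) and 13 (9.44%) in L6b and 4 (11%) and 8 (11.5%) in L5/6 NP, and L5 ET had 11 (19.2%) and 11 (15%).

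Nuclei of other classes also carried RNA of excitatory neurons. The summed level of 5 markers of excitatory neurons was 91.3% of its excitatory level in astrocytes, 126% in oligodendrocytes, 86.5% in oligodendrocyte precursors, 141% in microglia and 48.4% in inhibitory neurons, with 0 of the 5 at 0. Single markers ranged between 21.4% and 256% of their excitatory level in oligodendrocytes, between 18.5% and 169.9% in oligodendrocyte precursors and between 20% and 290.2% in microglia. A member's level inside these ranges is treated as background and is not read as expression by the glial cell. The ranges alone cannot show where a member's RNA came from.

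Kcnh8 stood clear of that background. In oligodendrocyte precursors Kcnh8, an elk channel at chr17:52602709-52979194 (plus strand), was at 234 and 221 CPM in KO libraries, against 237 and 193 CPM in WT libraries (log2 6.62 ± 0.18, adjusted p = 4.64e-41), and excitatory neurons averaged 3.18 ± 0.64 CPM. Committed precursors averaged 24.4 ± 23.2 CPM of it, and all precursor libraries lay above all libraries of every other class. In these precursors Kcnd2, at chr6:21215503-21729805 (plus strand), was at 2264 and 2347 CPM in KO libraries, against 2302 and 2256 CPM in WT libraries (log2 1.80 ± 0.09, adjusted p = 2.51e-27), and Kcnd3 averaged 418 ± 44.7 CPM there (log2 1.82 ± 0.10, adjusted p = 2.21e-25). Both lay within the marker range in precursors, at 153% and 140% of their excitatory level, and under that rule are not read as expression. The top of the range there, 169.9%, is that of Nrgn, and the next marker, Slc17a7, was at 94.1%. In oligodendrocytes Kcnd2 and Kcnd3 were at 18.2% and 17.4%, and in microglia at 19.1% and 18.8%. The source of their RNA in precursors was not tested.

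In oligodendrocytes Kcna1, at chr6:126640397-126646384 (minus strand), was at 449.5 and 410.5 CPM in KO libraries, against 430.1 and 438 CPM in WT libraries (log2 2.24 ± 0.07, adjusted p = 7.75e-38), and excitatory neurons averaged 78.5 ± 3.78 CPM. In committed precursors Kcna1 was at 343 and 345 CPM in KO libraries, against 235 and 206 CPM in WT libraries (log2 KO over WT 0.65 ± 0.31, adjusted p = 0.862), and in the earlier precursors it averaged 72.9 ± 25.6 CPM. Kcna6 was likewise highest in oligodendrocytes, at 157 ± 10.1 CPM (log2 1.56 ± 0.09, adjusted p = 5.08e-24), and Kcna2 in committed precursors, at 43.7 ± 8.59 CPM. Kcna1 and Kcna6 were the members above the marker range in oligodendrocytes, where 13 of the 24 named members lay within it and 9 below. Elsewhere the members above it were Kcna2 in astrocytes, Kcnf1 in microglia, and Kcna1, Kcna2, Kcna6, Kcnf1 and Kcnh8 in committed precursors. Kcna2 was at 184% of its excitatory level in astrocytes, near the top of the range there (174.8%). In the other glial classes it lay between 148% in oligodendrocyte precursors and 209% in committed precursors. Kcnf1 was above its excitatory level in every glial and vascular class, between 119% in fibroblasts and 382% in microglia. Committed precursors were only 205 nuclei, and their level of Kcna2 rested on 20 UMIs. In vascular classes Kcnq1 and Kcns3 exceeded the marker range in endothelial cells and Kcns1 in mural cells. The endothelial values rested on 8 UMIs of Kcnq1 and 5 of Kcns3 over the 4 libraries, and the range bounds RNA of excitatory neurons only, whereas Kcns3 was higher in inhibitory neurons. Kcns1, whose highest mean was in mural cells at 21.2 ± 15.4 CPM, rested there on 7 UMIs in all.

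**Figure D3:**
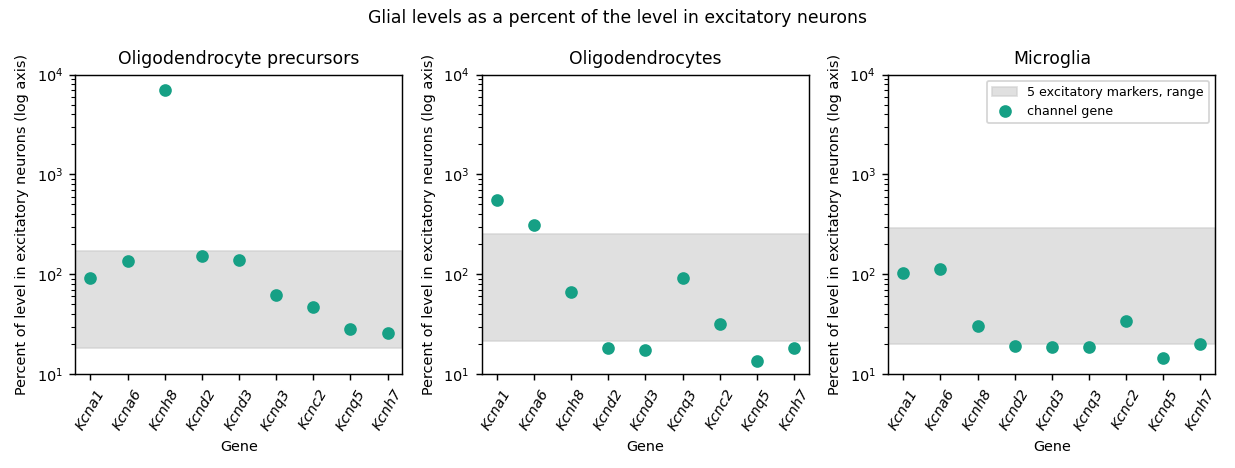
Level of 9 members as a percent of their level in excitatory neurons (log axis) in oligodendrocyte precursors, oligodendrocytes and microglia; each point is the mean of the 4 libraries and the grey band is the range of the 5 excitatory markers in that class. Kcnh8 lies above the band in precursors and Kcna1 and Kcna6 in oligodendrocytes.

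The 12 members that stayed under 20 CPM in every type were Kcna3 (highest 2.93 CPM, Lamp5 or Sncg), Kcna5 (5.89, mural cells), Kcna7 (2.22, fibroblasts), Kcna10 (4.66, endothelial cells), Kcnd1 (12.9, microglia), Kcng2 (15.2, L5 ET), Kcng3 (15.8, endothelial cells), Kcng4 (4.68, fibroblasts), Kcnh2 (19.4, border macrophages), Kcnh6 (4.66, endothelial cells), Kcns2 (11.1, microglia) and Kcnv2 (4.80, Lamp5 or Sncg). These highest values rested on 1 UMI each for Kcna7, Kcna10 and Kcnh6, 2 each for Kcna5, Kcng4 and Kcnh2, 5 for Kcng3, 6 for Kcna3 and 10 for Kcnv2, so the highest type of these 9 was not resolvable at this depth. Kcng2, Kcnd1 and Kcns2 rested on 119, 26 and 22 UMIs. Among neurons Kcng3 was highest in L2/3 IT (13.5 ± 4.98 CPM, log2 1.66 ± 0.16, adjusted p = 9.6e-13).

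The genotype comparison asked which members changed in KO neurons. In excitatory neurons 3 of the 34 members tested were called, all lower in KO: Kcng3, Kcnq3 and Kcnc2 (edgeR quasi-likelihood test, Benjamini-Hochberg over all genes). Of all 19076 genes tested 4.41% were called, 1.38% as lower in KO. Kcng3, a silent Kv6 subunit at chr17:83585957-83631895 (minus strand), was at 6.46 and 5.22 CPM in KO libraries, against 11.6 and 10.98 CPM in WT libraries (log2 -0.98 ± 0.15, adjusted p = 0.00805). Kcnq3, the M-channel subunit at chr15:65986387-66286642 (minus strand), was at 814 and 807 CPM in KO libraries, against 975 and 1048 CPM in WT libraries (log2 -0.35 ± 0.06, adjusted p = 0.0178). Kcnc2 was at 186 and 178 CPM in KO libraries, against 221 and 234 CPM in WT libraries (log2 -0.35 ± 0.07, adjusted p = 0.0338). For each of the 3 both KO libraries lay below both WT libraries. Called members were picked by a test on these same libraries, so their lack of overlap, here and in the types below, is no separate support. Gm27153 lies on the other strand of Kcnq3 and Gm26580 on that of Kcnq5, and without the strand setting their reads cannot be told apart. All 3 calls were lost when either WT library was left out, with adjusted p-values of 0.579 to 0.615 without WT replicate 1 and of 0.467 without WT replicate 2, fits in which no gene at all was called. They were also lost with no filter on low counts (0.0857 for Kcng3, 0.0994 for Kcnq3 and 0.133 for Kcnc2), and that of Kcnc2 without TMM factors (0.0523) and without KO replicate 2 (0.0531).

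Other members came near the threshold without passing it. Kcnh5 was at 113 and 98.8 CPM in KO libraries, against 137 and 128 CPM in WT libraries (log2 -0.35 ± 0.09, adjusted p = 0.0627), and DESeq2 called it. Kcnq5 was at 1651 and 1578 CPM in KO libraries, against 1881 and 1798 CPM in WT libraries (log2 -0.22 ± 0.06, adjusted p = 0.0652), so its groups did not overlap although the call was missed. Over the 34 members the median log2 change was -0.13, against 0.00 over all genes, and 26 were negative, against 49.53% of all genes. Both KO libraries lay below both WT libraries for 13 members (21.6% of all genes did) and above them for 5 (30%). Of the members 0 were called higher in KO by edgeR, and 3.03% of all genes were.

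**Figure D4:**
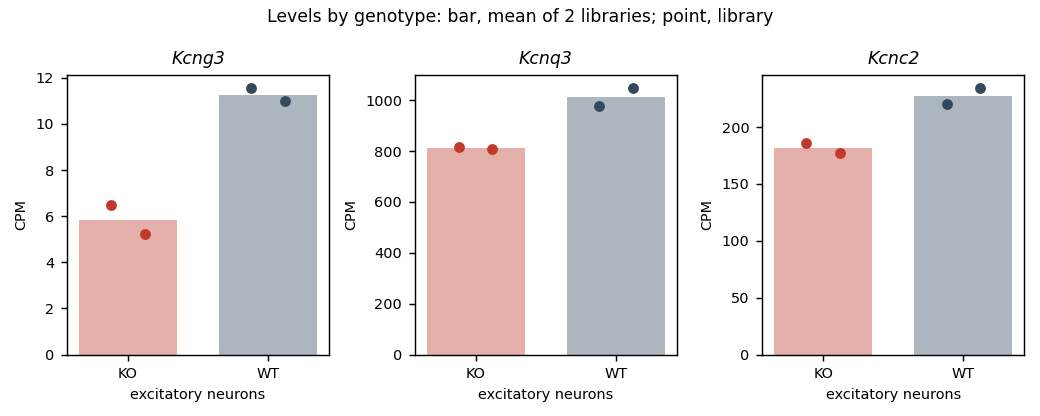
Level in CPM (bars are means, points are libraries, axes start at 0) of Kcng3, Kcnq3 and Kcnc2 in excitatory neurons, KO left of WT, 2 libraries each. Both KO points lie below both WT points for all 3 genes.

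Tests within 16 neuron subclasses and clusters gave 11 calls in 5 of them, for 6 members, all lower in KO. In L4/5 or L5 IT neurons 5 members fell (3.33% of all genes were called, 1.24% lower). There Kcng3 was at 5.19 and 5.21 CPM in KO libraries, against 14.8 and 13.9 CPM in WT libraries (log2 -1.48 ± 0.24, adjusted p = 0.0045), and both KO values were under those of WT. Kcnq3 was at 1228 and 1226 CPM in KO libraries, against 1452 and 1574 CPM in WT libraries (log2 -0.32 ± 0.06, adjusted p = 0.00903) and Kcnc2 at 228 and 198 CPM in KO libraries, against 266 and 287 CPM in WT libraries (log2 -0.40 ± 0.10, adjusted p = 0.0392). Kcnq5 fell less, to 1869 and 1729 CPM in KO libraries, against 2087 and 2064 CPM in WT libraries (log2 -0.23 ± 0.05, adjusted p = 0.027), and Kcnh1, at chr1:192190774-192510159 (plus strand) with Hhat on the other strand, was at 295 and 298 CPM in KO libraries, against 369 and 395 CPM in WT libraries (log2 -0.39 ± 0.09, adjusted p = 0.0274). None of the 5, picked by their calls, overlapped between genotypes, which is no separate support. Both KO libraries lay below both WT libraries for 20.5% of all genes in these neurons. The call of Kcng3 held under all 10 alternatives. Kcnq3 lost its call with DESeq2 (0.0564), Kcnq5 with DESeq2 (0.362), without TMM factors (0.0601) and without WT replicate 1 (0.104), and Kcnh1 without WT replicate 1 (0.0505) or 2 (0.156) and with Kcn genes in the clustering (0.0519). Kcnc2 lost it in 5 of 10 alternatives, namely DESeq2, no TMM factors, no low-count filter and without KO replicate 2 or WT replicate 2, with adjusted p up to 0.203.

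In L6 IT neurons (2.19% of all genes called, 0.959% lower) Kcnc2 was at 157 and 136 CPM in KO libraries, against 231 and 236 CPM in WT libraries (log2 -0.69 ± 0.13, adjusted p = 0.00496), and that call held under all 9 alternatives. There Kcnq3 was at 593 and 633 CPM in KO libraries, against 769.9 and 909 CPM in WT libraries (log2 -0.47 ± 0.11, adjusted p = 0.0243), a call lost with DESeq2 (0.117) and without WT replicate 2 (0.259). Neither gene overlapped between the genotypes in L6 IT neurons, where 20.2% of all genes had both KO libraries below both WT libraries. In L4/5 IT neurons (1.9%, 0.643% lower) Kcnc2 was at 225 and 199.7 CPM in KO libraries, against 287 and 293 CPM in WT libraries (log2 -0.47 ± 0.11, adjusted p = 0.0409). KO was below WT in every library (19.2% of all genes), and the call was lost in 6 of 10 alternatives, among them without KO replicate 2 or either WT replicate, with adjusted p up to 0.216.

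In CLA or L6 Car3 neurons (1.27%, 0.676% lower) Kcnq3 was at 877 and 886 CPM in KO libraries, against 1226 and 1218 CPM in WT libraries (log2 -0.51 ± 0.11, adjusted p = 0.0297), a call lost without WT replicate 1 (0.0959). The excitatory cluster with Ndst4 and Ntng1 among its top genes (1.46%, 0.73% lower) gave 2 calls. There Kcnh5, at chr12:74897220-75177332 (minus strand), was at 162 and 108 CPM in KO libraries, against 253 and 222 CPM in WT libraries (log2 -0.84 ± 0.17, adjusted p = 0.0113). Kcnq3 was at 1037 and 1114 CPM in KO libraries, against 1362 and 1438 CPM in WT libraries (log2 -0.44 ± 0.10, adjusted p = 0.0217). Kcnh5 lost its call without KO replicate 2 (0.0694), WT replicate 1 (0.805) or WT replicate 2 (0.66), and Kcnq3 lost it in 5 of 10 alternatives, among them without KO replicate 1 or either WT replicate, with adjusted p up to 0.805. The members counted next over types were picked because they were called in these same data. The types are parts of the same 4 libraries, so the counts are no separate support. For Kcnq3 the KO libraries lay below the WT libraries in 12 of 12 excitatory subclasses and clusters, with log2 changes of -0.59 to -0.12, 4 of them called. Over all genes this share was 20.5% in L4/5 or L5 IT, 20.2% in L6 IT and 19.2% in L4/5 IT neurons. Kcnq3 was negative in 3 of 4 inhibitory subclasses, with a highest value of 0.12, and in 7 of 8 glial and vascular classes, again with a highest value of 0.12. In each of these 8 classes its level lay within or below the range of the excitatory markers and is not read as expression by those cells. In the excitatory types Kcnh5 and Kcnh7 were negative in 12 of 12, Kcnq5 and Kcnh1 in 11 of 12, Kcnc2 in 10 of 12, and Kcng3 in 6 of 6. Kcnh7, at chr2:62693414-63184287 (minus strand, with Gca and Gm13569 on the other), was not called in any of them. In excitatory neurons as a whole it gave log2 -0.24 ± 0.07, adjusted p = 0.116. The other 11 subclasses and clusters gave 0 calls by edgeR, 0 to 10 members each at an unadjusted p under 0.05 and 1 call by DESeq2, in L2/3 IT neurons. Of all genes 2.24% were called in L2/3 IT, 1.47% in L5 ET, 1.17% in L5/6 NP, 3.45% in L6 CT, 0.797% in L6b, 1.05% in the Tnxb Tshz2 cluster, 0.728% in the Npsr1 cluster, 0.305% in Pvalb, 0.867% in Sst, 0.355% in Vip and 0.258% in Lamp5 or Sncg. In 16 of 16 more members were negative than positive, with medians of -0.29 to -0.02, and the same 4 libraries supplied all 16. Among all genes 48.94% to 50.56% were negative in these types.

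**Figure D5:**
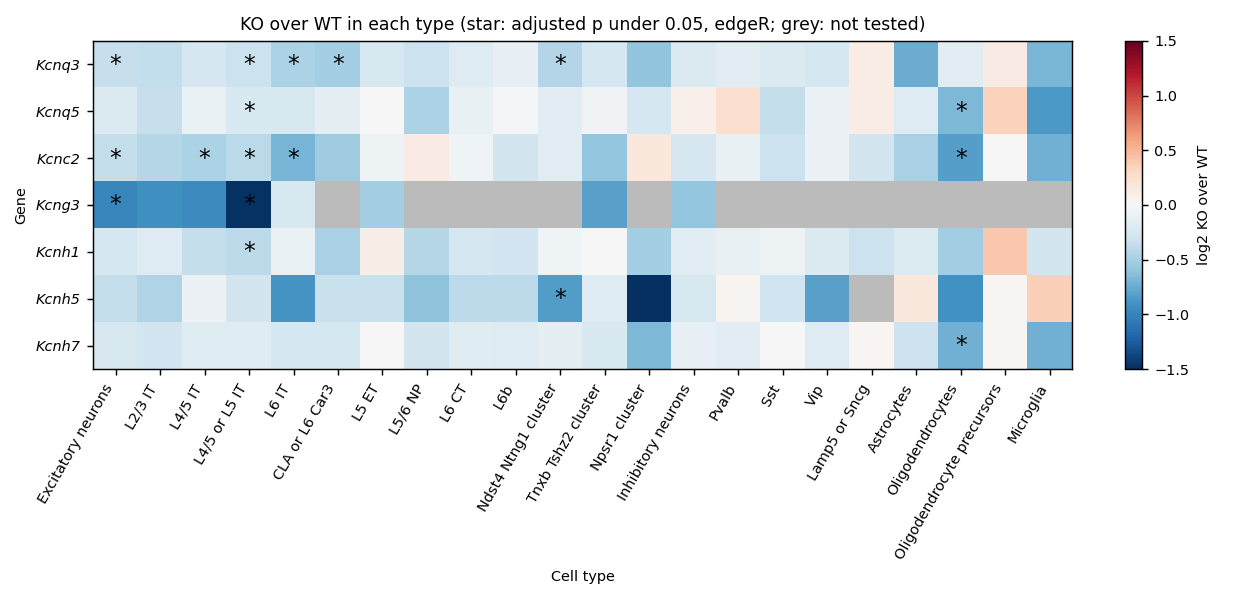
Heat map of the log2 change, KO over WT, of 7 members (rows) in 22 types (columns); stars mark adjusted p under 0.05 in edgeR's quasi-likelihood test and grey marks types where a gene was not tested. Blue, lower in KO, covers nearly all excitatory columns for Kcnq3, Kcnh5 and Kcnh7, and Kcng3 is darkest in L4/5 or L5 IT neurons.

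In inhibitory neurons 0 of 29 members were called by edgeR (1.29% of all genes were, 0.32% as lower), 7 had an unadjusted p under 0.05 and DESeq2 called 0. Kcnc2 was at 1252 and 1123 CPM in KO libraries, against 1446 and 1350.3 CPM in WT libraries (log2 -0.25 ± 0.07, adjusted p = 0.079). Its groups did not overlap, and Pvalb interneurons, where its level is highest, made up 34.5% and 35.4% of inhibitory nuclei in KO and 38.2% and 36.0% in WT. Their part in this difference was not tested. Kcnq3 was at 664 and 733 CPM in KO libraries, against 777 and 827 CPM in WT libraries (log2 -0.22 ± 0.08, adjusted p = 0.231). Of the 29 members 20 were negative, with a median of -0.12, against 0.00 for all genes, and KO lay below WT in all libraries for 13 (19.2% of all genes) and above for 3 (24.9%).

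Of 33 members tested for a genotype effect that differed between inhibitory and excitatory neurons, 0 were called by edgeR's genotype by class term (0.698% of all genes were), 3 had an unadjusted p under 0.05 and DESeq2 called 0. Kcns3 came nearest. In inhibitory neurons it was at 67.2 and 58.2 CPM in KO libraries, against 74.2 and 76.6 CPM in WT libraries (log2 -0.29 ± 0.12, adjusted p = 0.31), and in excitatory neurons at 3.94 and 5.18 CPM in KO libraries, against 3.31 and 3.46 CPM in WT libraries (log2 0.40 ± 0.19, adjusted p = 0.281). KO was below WT in every inhibitory library and above WT in every excitatory library, and the effect in inhibitory minus that in excitatory neurons was -0.73 ± 0.19 on the log2 scale (adjusted p = 0.0844). Kcnq5 in inhibitory neurons was at 989.6 and 1059 CPM in KO libraries, against 892 and 1027 CPM in WT libraries, which overlapped, and its difference of effects was 0.26 ± 0.07 (adjusted p = 0.086). Vip and Lamp5 or Sncg interneurons held the most Kcnq5. Together they made up 39.7% and 40.1% of inhibitory nuclei in KO and 35.0% and 38.3% in WT. Their part in the Kcnq5 difference was not tested. The third was Kcnc1, at -0.25 ± 0.08 (adjusted p = 0.217). With no filter on low counts or without KO replicate 1 Kcns3 and Kcnq5 were called, and without WT replicate 2 Kcnq5 was.

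Among glia, oligodendrocytes gave 3 calls among 21 members tested (0.716% of all genes, 0.39% lower). Kcnh7 was at 177 and 182 CPM in KO libraries, against 317 and 282 CPM in WT libraries (log2 -0.72 ± 0.14, adjusted p = 0.0325). Kcnq5 was at 168 and 189.7 CPM in KO libraries, against 290.1 and 286 CPM in WT libraries (log2 -0.67 ± 0.14, adjusted p = 0.0395). Kcnc2 was at 45.2 and 49.1 CPM in KO libraries, against 78.1 and 90.5 CPM in WT libraries (log2 -0.82 ± 0.17, adjusted p = 0.0395). For all 3 the KO libraries lay below the WT libraries (24.2% of all genes), and all 3 levels were at or under the background of excitatory RNA described above. The 5 excitatory markers summed to 1555 and 1885 CPM in KO oligodendrocytes, against 1316 and 1672 CPM in WT. Their part in the lower values was not tested. All 3 calls were lost when doublets were kept (0.0561 for Kcnh7, 0.0805 for Kcnq5 and 0.0731 for Kcnc2). Kcnh7 also lost its call without WT replicate 1 (0.153), Kcnq5 without KO replicate 1 or either WT replicate (up to 0.118), and Kcnc2 without KO replicate 1 or WT replicate 2 (up to 0.12). DESeq2 called Kcnh7 (0.0118) and Kcnq5 (0.0187) and gave no adjusted p for Kcnc2. Astrocytes (0.288% of all genes called), oligodendrocyte precursors (0.0219%), committed precursors (0%), microglia (0.0781%), endothelial (0%), mural cells (0%), fibroblasts (0.381%) and striatal projection neurons (0.246%) gave 0 called members by edgeR and 0 by DESeq2. At an unadjusted p under 0.05 they held 5, 0, 3, 4, 1, 2, 2 and 2 members in that order. More members were negative than positive in each of these classes except oligodendrocyte precursors, with 4 negative, 11 positive and a median of 0.09. Kcnq3 in astrocytes was at 463 and 541 CPM in KO libraries, against 797 and 874 CPM in WT libraries (log2 -0.75 ± 0.17, adjusted p = 0.131). Its mean there was 73.4% of its excitatory level, within the marker range, and under that rule is not read as expression by astrocytes. Kcnq3 was at 18.9% of its excitatory level in microglia and at 92.4% in oligodendrocytes. The part of excitatory RNA in the astrocyte difference was not tested. An astrocyte cluster with Def8 among its top genes held 29.7% and 43.4% of astrocytes in KO and 1.53% and 2.96% in WT.

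Partners of these channels and other channel genes were read from lists. Of 32 auxiliary subunits and partners of these channels tested in excitatory neurons, 0 rose and 2 fell, with a median of -0.16 and 23 negative, beside 0.00 and 49.53% for all genes, of which 4.41% were called. The partners that fell were Cntnap2, which clusters Kv1 channels beside nodes of Ranvier, at 1216 and 1186 CPM in KO libraries, against 1429.5 and 1407 CPM in WT libraries (log2 -0.27 ± 0.06, adjusted p = 0.0315), and Dlg2, a scaffold that binds Kv1 tails, at 4547 and 4419 CPM in KO libraries, against 5093 and 5037 CPM in WT libraries (log2 -0.21 ± 0.04, adjusted p = 0.0235). In inhibitory neurons, where 1.29% of all genes were called, the same 2 of 28 fell, with log2 changes of -0.27 and -0.17 (adjusted p = 0.000801 and 0.0302). Of 33 other potassium channel genes in excitatory neurons 1 rose and 2 fell, with a median of -0.14 and 23 negative. Kcnmb2, an auxiliary subunit of calcium-activated BK channels, was at 20.004 and 29.1 CPM in KO libraries, against 13.2 and 13.6 CPM in WT libraries (log2 0.85 ± 0.17, adjusted p = 0.0307). Kcnma1, the BK pore, was at 1719.9 and 1576 CPM in KO libraries, against 2008 and 2019.9 CPM in WT libraries (log2 -0.32 ± 0.06, adjusted p = 0.016), and Kcnk2, a leak channel, at 119 and 115 CPM in KO libraries, against 158 and 145 CPM in WT libraries (log2 -0.40 ± 0.08, adjusted p = 0.0257). In inhibitory neurons Kcnma1 alone of 26 was called (log2 -0.29, adjusted p = 0.0327). Of 14 sodium and HCN channel genes 0 were called in excitatory neurons by edgeR, 5 had an unadjusted p under 0.05 and DESeq2 called 0, and their median was -0.10 with 11 negative. Of 18 calcium channel genes 0 rose and 2 fell in excitatory neurons, with a median of -0.0035 and 9 negative. These were the auxiliary subunits Cacna2d3 (log2 -0.57 ± 0.06, adjusted p = 0.00117) and Cacnb4 (log2 -0.38 ± 0.07, adjusted p = 0.0164). In inhibitory neurons 0 of 13 sodium and HCN genes and 0 of 17 calcium channel genes were called by edgeR, with 3 of either list at an unadjusted p under 0.05, and DESeq2 called 0 of both. DESeq2 also called neither partner in either class, nor Kcnma1 in inhibitory neurons. Without either WT replicate, none of these excitatory calls remained.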

How the data were processed

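Single-nucleus RNA was measured in 4 cortex libraries, 2 KO and 2 WT, of 38314394 to 45605971 UMIs. The deposited matrices hold UMI counts per gene and nucleus, for which the submitters' processing notes name Cell Ranger 7.1.0 and the mm10 build; how introns and strand were counted is not given in the sources used here. Nuclei under 500 UMIs or 300 genes, or over 5% mitochondrial counts, and 2656 doublets marked by Scrublet (4.47% to 5.44% per library) were removed. Nuclei were clustered with scanpy 1.11.5 on 2000 variable genes without Kcn genes (30 components, Leiden resolution 1, and 2 for neuron subclasses) and named by marker lists. The 3622 nuclei (6.99%) whose clusters could not be named were left out.

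UMI counts were summed per library and type. Types with at least 30 nuclei in every library were tested with edgeR 4.0.16 in R 4.3.3 (quasi-likelihood test, TMM factors, filterByExpr with a minimum count of 10, Benjamini-Hochberg over all genes of the type, threshold 0.05). Log2 changes are KO over WT, with standard errors after ±. Levels of a type were tested against the mean of its sister types, with the library as a term. The difference of effects was the genotype by class term. Alternatives were DESeq2 1.42.0, no low-count filter, no TMM factors, doublets kept, a replicate block, each library left out, and clustering with Kcn genes. Leaving out the Ndst4 clusters was added after seeing the data. No columns were left unmapped.

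Of the 40 members 4, and 1 listed channel gene, are not reported here. The members and lists were chosen with earlier results of these data known. Members named are those past a threshold for genotype, and those reaching 20 CPM in a type with their highest and lowest type; the others are given by their highest level. On simulated data the genotype test in excitatory neurons found 73% of 100 changes of 1 on the log2 scale and 13% of 100 changes of 0.5 among 19076 genes. In that run 12 unchanged genes were also called. Gene positions are from GENCODE vM21 (GRCm38), where 32235 of the files' gene IDs were found. Of the members described, 13 have a gene on the opposite strand.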

Additional observations from a re-analysis of the deposited data

How the results depend on the processing

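With only 2 libraries per genotype, counts of called members moved with the settings. In excitatory neurons the 3 calls became 0 with no low-count filter, 12 with the replicate block, and 0 to 8 when 1 library was left out, with 0 without either WT library and 8 without KO replicate 1. In inhibitory neurons 0 became 3 with the replicate block and 0 to 2 with a library left out. In the other classes 3 became 1 with doublets kept, 5 with no low-count filter, 12 with the block and 2 to 11 with a library left out, 11 without KO replicate 2. In neuron subclasses 11 became 6 with DESeq2, 7 with Kcn genes in the clustering, 21 with no low-count filter, 38 with the block and 6 to 29 with a library left out, 6 without WT replicate 1 and 29 without KO replicate 1. For the difference of effects 0 became 2 with no low-count filter and 0 to 2 with a library left out. Every call of a genotype effect was lower in KO except, without KO replicate 1, Kcnq5 in oligodendrocyte precursors and Pvalb interneurons and Kcna4 and Kcns3 in L2/3 IT neurons.

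The replicate numbers came with no stated meaning, and same-numbered libraries deviated together with correlations of 0.065 to 0.364 over only 2 pairs, so the numbers were not taken to pair the animals. In both genotypes replicate 1 had the Uty pattern and replicate 2 the Xist pattern, so the block also follows the sex read from the data. The 121, 155 and 54 level calls of the classes, excitatory and inhibitory subclasses stayed within 1.5 times of these numbers under DESeq2, no TMM factors, no low-count filter and Kcn genes in the clustering, and ranged over 105 to 115, 131 to 140 and 47 to 51 with a library left out. Of single level calls 2 reversed, both with Kcn genes in the clustering, where Kcnh5 in L2/3 IT was at -0.0461 and Kcnh7 in L4/5 or L5 IT at -0.044. That clustering gave no value for endothelial cells, L6 IT or the Npsr1 cluster. Its 7 calls in neuron subclasses are thus over 14 types and not 16, without L6 IT, which held 2 of the 11 calls. The same clustering put 98.9% of nuclei in the same class and 88.9% in the same subclass. The cause of these changes was not tested.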

Other observations

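Changes over all genes went with gene length, and the members are read beside that. In excitatory neurons the median log2 change, KO over WT, was 0.11 for genes under 10 kb and -0.10 for genes over 200 kb, of which 68.4% were negative. Among members over 200 kb 9 of 10 were negative, with a median of -0.17, and among members under 10 kb 6 of 8 were negative, with a median of -0.23. In inhibitory neurons the medians were 0.13 and -0.08 for all genes under 10 kb and over 200 kb, and -0.10 and -0.06 for the 6 and 9 members in these ranges. Spearman's rho between gene length and log2 change was -0.191 over 19076 genes and -0.022 over 34 members, given across genes, which are not independent, from the same 4 libraries. Whether length takes part in the lower values was not tested.

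In oligodendrocytes, where Kcnh7, Kcnq5 and Kcnc2 were lower in KO, the summed excitatory markers stood at 125% and 138% of their excitatory level in KO and at 111% and 128% in WT.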
